A study of Coturnix japonica with 54 samples.

Results

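Male Japanese quail (Coturnix japonica) at the shortest day length of a simulated year were compared with males at the long days from which that year began. The comparison takes every bird labelled 8L (8 h of light per day, 6 birds) and every bird labelled 16La (16 h of light, 6 birds), 12 of the 54 birds of the study. The study moved its birds from 16 h of light down to 8 h and back up to 16 h through 9 steps of 2 weeks, and took 6 birds at the end of each step. The 16La birds were therefore in their first long-day step and had seen no shorter day in the study, and the 8L birds had passed through 14, 12 and 10 h on the declining arm. All birds were male, and the sources used here give no strain, no age and no batch. Body mass guided which birds were taken. The 8L birds were also taken later than the 16La birds, so that day length and time in the study cannot be told apart. Each sample is the RNA of 1 bird, and p-values measure the spread between birds.

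Birds read day length in the mediobasal hypothalamus. In quail, thyrotropin made by the pars tuberalis on long days raises the deiodinase DIO2 in cells that line the third ventricle, DIO2 turns thyroxine into active thyroid hormone, and DIO3 inactivates that hormone. Release of gonadotropin-releasing hormone into the portal blood then drives the pituitary to make luteinising hormone and follicle-stimulating hormone, which share the alpha subunit CGA and differ in their beta subunits.

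Every sample is labelled as mediobasal hypothalamus, and polyadenylated RNA was read as cDNA on Oxford Nanopore flow cells. The authors deposited a table of CPM (counts scaled to a library total of 1000000) and a table of estimated counts, which are called the CPM table and the count table here and were tested apart. Recovered reads in the CPM table numbered 251382 to 1889707 for the 16La birds (median 979969) and 376519 to 1286214 for the 8L birds (median 1048454). The count table was shallower, with 36017 to 119229 counts in 16La (median 75566.5) and 31884 to 48581 in 8L (median 43383). Checked against markers, the CPM table carried the labelled tissue: NPY, a hypothalamic neuropeptide, had 925 reads in 16La and 961 in 8L, and PRL, the pituitary hormone prolactin, had 4 and 2. CGA, which the pars tuberalis also makes, had 649 and 742 reads there. The count table did not match its label in that way. It held no count of NPY or VIP in the 12 birds and 8 of its 16 hypothalamic peptide genes were at 0, whereas PRL had 7567 counts in 16La and 817 in 8L. Its pituitary transcripts are therefore described first and its label is not used to name a tissue. Bird 5 of 8L stood apart in the count table, with 1545 genes detected against 4393 to 7112 in 16La and up to 5721 in 8L, and with a POMC level of 3000 CPM. Depth also followed the place of a bird's column among the 6 of its group in the table headers, for which no label names a batch. The shallowest library of a group in the CPM table (251382 to 379260 reads, the others 626001 or more) was at place 4 in 8 of 9 groups, and was bird 2 of 16La and bird 3 of 8L. At place 6 lay the library with the highest share of ACOT9, the most abundant gene of the count table, in 9 of 9 groups, and this was bird 4 of 16La and bird 5 of 8L. The library with the fewest genes detected in the count table was at place 6 in 6 of 9 groups. This held for bird 5 of 8L but not for 16La, where the bird at place 6 had 4880 genes. With that place as a term, chosen after seeing the data, the same 4 genes and 5 transcripts of the count table were called and none in the CPM table.

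In the count table the shortest days went with low levels of 3 pituitary hormone transcripts. CGA, FSHB (the beta subunit specific to follicle-stimulating hormone) and PRL fell, and so did LOC107319226, a protein-coding gene without a symbol. These were the 4 genes that edgeR called lower, of 826 tested (0.484%), and no gene was called higher (0.0%). FSHB entered that fit through counts of other groups, as described below. At an unadjusted p under 0.05 lay 25 genes on the lower side (3.03%) and 8 on the higher (0.969%). The 8L birds had the lower median of counts, and whether depth bears on that split was not tested. DESeq2 and limma-voom each called 1 gene higher, ZC3H7B, described below. Of the 5 pituitary hormone genes measured, 4 were tested and 3 fell, with a median log2 change of -2.38 against 0.0041 over all genes tested. In bulk RNA, fewer cells of a type and less RNA per cell cannot be told apart.

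CGA had a lowest value of 4106 CPM, a median of 5782 and a highest of 9218 among the 16La birds. In 8L the lowest was 1116, the median 1310 and the highest 2070 CPM. Every 8L bird lay below every 16La bird, and the 8L birds were close together. The mean fell from 6264 ± 2066 to 1405 ± 348 CPM (SD, n = 6 each), a log2 change of -2.19 with a 95% interval from -2.88 to -1.50 (SE 0.34; edgeR adjusted p = 4.95e-05). All 2656 counts in 16La and all 340 in 8L belonged to a single CGA transcript.

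FSHB was detected in every 16La bird, at 55.5, 71.0, 241, 166, 534 and 143 CPM for birds 1 to 6, and in no 8L bird. These levels rest on 88 counts in 16La. None of the 247637 counts of the 8L birds was FSHB, which allows a level of up to 12.1 CPM over the group, so FSHB was at least 16.6-fold lower in 8L than the pooled 202 CPM of 16La. The limit takes 3 counts over the group as its floor and covers counting error only. In single 8L birds 3 counts stand for 61.8 to 94.1 CPM, above the 55.5 CPM of bird 1 of 16La. The limit therefore holds for the group and not for each bird. The fitted log2 change was -6.35 (SE 1.12; edgeR adjusted p = 0.00026). FSHB was too low to enter a fit of the 2 groups alone. It entered the main fit through counts of groups outside the comparison, such as 12Lv (mean 896 CPM) and 14La (420 CPM). Its call depends on those groups and adds no separate support to the levels of the 12 birds.

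PRL encodes prolactin, which birds release above all in the breeding and parental phases. Its lowest value in 16La was 8995 CPM, its median 16575 and its highest 32706. Among the 8L birds the lowest was 1344, the median 3382 and the highest 5576 CPM. The groups did not overlap, although 16La birds differed among themselves by more than 3-fold. The mean fell from 17640 ± 8843 to 3179 ± 1573 CPM (SD, n = 6 each), and the log2 change was -2.57 (SE 0.44; edgeR adjusted p = 0.000195).

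The remaining pituitary transcripts did not follow that pattern. POMC, the precursor of corticotropin and the melanocortins, lay between 13005 and 25135 CPM in 16La (median 17212). In 8L it lay between 3000 and 39961 CPM (median 20935), so that the 8L birds spread to both sides of the 16La birds. Its lowest birds, bird 4 of 16La and bird 5 of 8L, were those at place 6 of the column order. The log2 change was 0.18, with a 95% interval from -0.87 to 1.24 (edgeR adjusted p = 0.998), and it was -0.05 with column place as a term (adjusted p = 0.993). Chromogranin A (CHGA), a protein of secretory granules, had a log2 change of -0.03 with an interval from -1.07 to 1.01. POU1F1, the transcription factor that drives PRL, TSHB and growth hormone in the pituitary, had one of -0.07 with an interval from -1.38 to 1.24. Each of these 3 intervals still holds a 2-fold change in at least 1 direction. Of 15 genes that mark pituitary cell types 2 were tested and none called, and their summed level was 981 to 2055 CPM in 16La and 219 to 2410 CPM in 8L, with bird 5 of 8L at the bottom. TSHB, the beta subunit of thyrotropin, rested on 21 counts in each group, of 436469 counts in 16La and 247637 in 8L. Its log2 difference was 0.25 with all birds (exact two-sided permutation p = 0.907). Without bird 5 of 8L it was 1.34 (exact two-sided permutation p = 0.0887), so a higher level in 8L was not bounded.

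**Figure D1:**
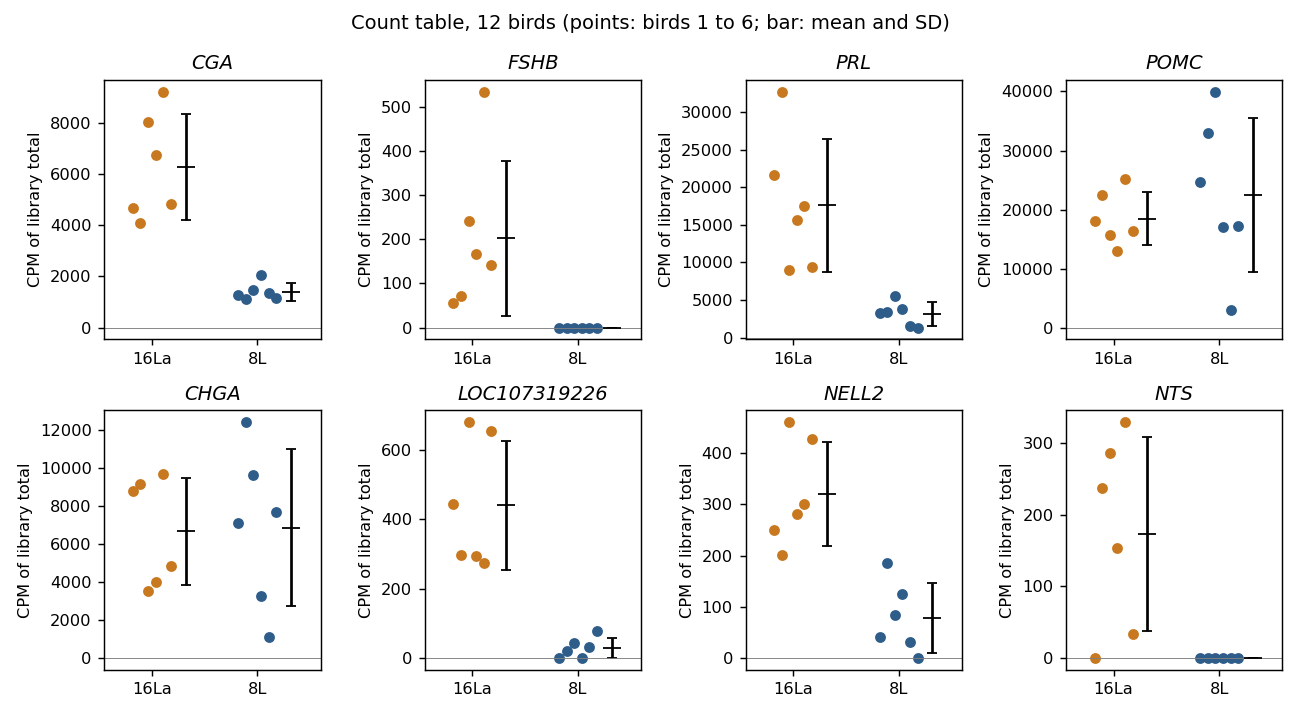
Levels in the count table for the 12 birds, in CPM of the library total on the y axis, for 16La and 8L on the x axis. Points are birds 1 to 6 of each group and bars are mean and SD. CGA, FSHB, PRL, LOC107319226 and NELL2 do not overlap between the groups, while POMC and CHGA do.

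CGA and PRL, already called lower from these counts, were also lower in 8L when read against POMC or CHGA in the same bird. This scale, with 0.5 added to each count, and the genes of all 6 ratios were chosen after seeing the data. The p-values of the ratios are therefore no separate support for the calls, and the ratios describe the same counts on another scale. POMC counts are a sum over 2 transcripts, 51567 over all birds of the study of which the larger holds 28560, so the ratios to POMC depend on that sum. The median ratio of CGA to POMC counts was 0.332 in 16La and 0.0604 in 8L (log2 difference -2.07; exact two-sided permutation p = 0.0152, adjusted p = 0.0182 over 6 ratios). For PRL to POMC it was 0.947 and 0.138 (log2 difference -2.45; exact p = 0.00216, adjusted p = 0.00649), and no 8L bird reached the lowest 16La bird. The ratio of CGA to CHGA had a log2 difference of -1.92 (exact p = 0.0281, adjusted p = 0.0281) and that of PRL to CHGA one of -2.29 (exact p = 0.00216, adjusted p = 0.00649). The CGA ratios overlapped between the groups. Their highest 8L values were 0.451 to POMC and 1.23 to CHGA, against lowest 16La values of 0.183 and 0.450. Without bird 5 of 8L, in which POMC and CHGA were lowest, the 4 differences ran from -2.37 to -2.78. CGA to CHGA then still overlapped, with 8L reaching 0.636, while CGA to POMC did not. With 6 birds against 6 there are 924 splits, and 0.00216 is the smallest two-sided p they allow.

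LOC107319226 moved with the hormone genes. It had 274 to 680 CPM in 16La (median 370, 193 counts) and 0 to 76.1 CPM in 8L (median 26, 7 counts). Birds 1 and 4 of 8L had no count, and the groups did not overlap. The log2 change was -3.85 (SE 0.82; edgeR adjusted p = 0.00485), and the call was lost when no filter on low counts was used (edgeR adjusted p = 0.0615). Relative to POMC it had a log2 difference of -3.66 (exact permutation p = 0.00649), and on that scale the groups overlapped.

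NELL2, a secreted glycoprotein of neurons, and NTS, the precursor of neurotensin, were also low in 8L, with no call in the main gene fit. NELL2 had 201 to 461 CPM in 16La (median 291, 142 counts) and 0 to 186 CPM in 8L (median 62.8, 20 counts), with no overlap. As a gene it did not pass (log2 change -2.06, SE 0.70; edgeR adjusted p = 0.419), and as a transcript it did (log2 change -2.05, SE 0.50; edgeR adjusted p = 0.00616). DESeq2 called it as a gene (adjusted p = 0.0288), and the transcript lost its call with no filter on low counts (edgeR adjusted p = 0.425). NTS, which was named after its values were seen, had 0, 237, 285, 154, 329 and 33.5 CPM in 16La birds 1 to 6 on 73 counts, and no count in 8L, which is at least 13.8-fold lower. Bird 1 of 16La, at 0, lay with the 8L birds. NTS was below the count filter of the main fit and has no test there. It entered 14 alternative edgeR settings, which share most birds, and was called lower in all 14 (adjusted p from 0.00242 to 0.0216). With no count in 8L, it entered them only through counts of other groups. As it was also picked on these values, the 14 calls add no separate support. In the CPM table neither gene moved in that way, with log2 changes of -0.15 (SE 0.32) for NELL2 and -0.12 (SE 0.30) for NTS.

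Groups that did not overlap at all were rare in the count table. Of 826 genes, 6 lay wholly lower in 8L (0.726%) and none wholly higher (0.0%). The lower depth of 8L in this table was not separated from that split. The 6 were CGA, PRL, FSHB, LOC107319226, NELL2 and KCNMA1, a calcium-activated potassium channel. KCNMA1 had 68.5 to 2166 CPM in 16La and counts in bird 4 alone of 8L (62.7 CPM), yet did not pass (log2 change -6.29, SE 1.79; edgeR adjusted p = 0.132). Its 287 counts in 16La were a sum over transcripts of which the largest held 13. Many transcripts of 1 gene hold equal counts in this table: among 309 genes with several transcripts and at least 500 counts, 213 had another transcript equal to the largest within 1 count. With the largest transcript standing for each gene 210 genes could be tested, and 5 were called, CGA, PRL, FSHB, LOC107319226 and NELL2. CGA, PRL and FSHB carried all their counts on 1 transcript, but their CPM are shares of totals that hold such repeats. ACOT9, an acyl-CoA thioesterase, has 7 transcripts with equal counts and made up 19.5% to 49.3% of the totals of 16La and 20.4% to 44.4% of those of 8L. With ACOT9 left out before scaling, the log2 change was -2.18 for CGA, -2.57 for PRL and -6.34 for FSHB (edgeR adjusted p = 0.000374 each).

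**Figure D2:**
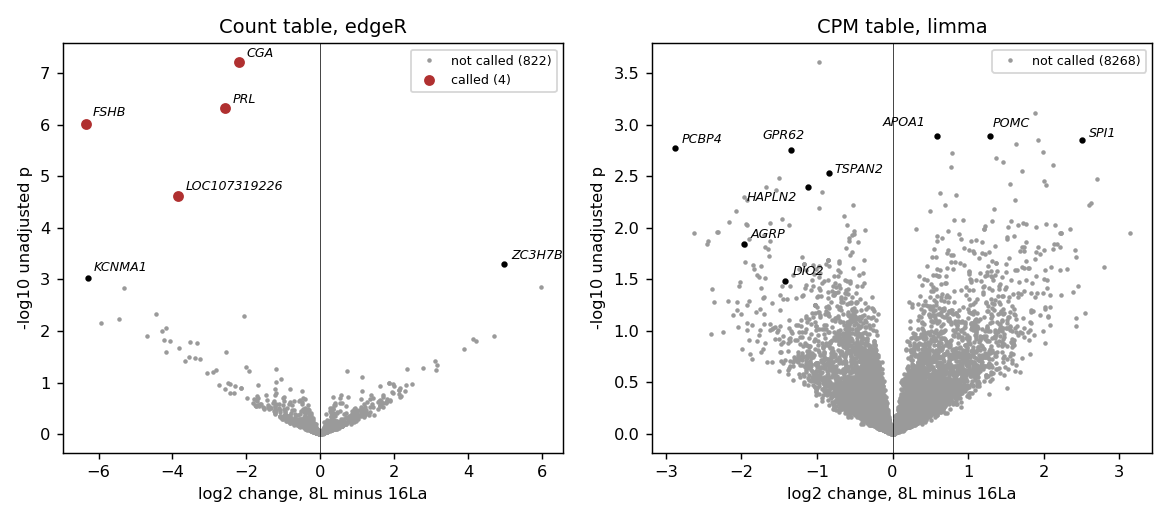
Log2 change (8L minus 16La, x axis) against -log10 of the unadjusted p (y axis) for the 826 genes of the count table and the 8268 genes of the CPM table. Red points passed the adjusted threshold: 4 in the count table, all lower in 8L, and none in the CPM table.

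Other genes at the edge of the count table did not pass. With no filter on low counts KCNMA1 (edgeR adjusted p = 0.000627), MEF2A (0.0216), DOCK10 (0.0233), MTSS1 (0.0233) and NAV2 (0.0216) did. In the main fit the edge genes on the lower side, none of which passed, were MEF2A, FAM214A, DOCK10 and MTSS1. MEF2A, a transcription factor of muscle and neurons, had a log2 change of -5.31 (SE 1.57, edgeR adjusted p = 0.148). The other genes had adjusted p from 0.419 to 0.481. On the higher side came ZC3H7B, an RNA-binding zinc finger protein, at 0 to 23.7 CPM in 16La and 0 to 406 CPM in 8L, with bird 5 of 8L alone at 0 (log2 change 4.99, SE 1.34; edgeR adjusted p = 0.0838). Its 58 counts in 8L sum transcripts of which the largest held 7. NAV2 had no count in 16La and 39 in 8L, 4 of them in its largest transcript (adjusted p = 0.148). CACNA1D, EVL, PTPRK, SVIL, DOCK9, DAAM2, PTPRS and GSN had adjusted p from 0.632 to 0.998.

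At the level of single transcripts 255 were tested. Those of LOC107319226, CGA, PRL, FSHB and NELL2 fell (5, 1.96%) and none rose (0.0%), and none was called higher by DESeq2 or limma-voom. At an unadjusted p under 0.05 lay 6 on the lower side (2.35%) and 5 on the higher (1.96%), together 11 (4.31%). DDX3X, an RNA helicase, had 4 transcripts with log2 changes from 1.09 to 1.16, and none passed (edgeR adjusted p from 0.459 to 0.877). Ribosomal protein transcripts RPS27A (0.71), RPL27A (0.50) and RPL27 (0.30) and the granule protein CHGB (-0.81) did not pass either (edgeR adjusted p = 0.975 each). Over genes, cytosolic ribosomal proteins had 72 members tested, none called, with 43 positive and a median of 0.10. Granule proteins had 6 tested, none called, with 4 negative.

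Placed in the whole cycle of 9 groups, PRL had its lowest mean at 8L, while CGA was lower still in 12La and 10La. FSHB had no count at 8L, which allows a level of up to 12.1 CPM over the group. It therefore cannot be ranked between 8L and 10La, where the lowest bird was also at 0. FSHB averaged 202 CPM at 16La, 420 at 14La, 30.1 at 12La, 12.7 at 10La and 0 at the shortest day. CGA averaged 7890 CPM in 14La and 1033, 1190 and 1405 in 12La, 10La and 8L. LOC107319226 had 571 CPM in 14La and 31.5, 28.4 and 28.4 in the next 3 groups, so that, like CGA, it stood at its 8L level from 12La on. PRL went from 22622 CPM in 14La to 9840, 4581 and 3179 in those groups, a course in smaller steps. NTS averaged 399 CPM in 14La and 2.13 in 12La. After 8L, FSHB averaged 114 CPM at 10Lv and 896 at 12Lv, and CGA 3246 and 7957. POMC at 8L (22474 CPM) was the second highest of the 9 means and CHGA (6854 CPM) the highest. These group means are descriptions, and the steps between them were not tested here.

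In the CPM table no gene passed at 8L against 16La. Limma called 0 of 8268 genes in either direction (0.0%), with 141 lower (1.71%) and 206 higher (2.49%) at an unadjusted p under 0.05, together 347 (4.2%), and on the recovered reads edgeR, DESeq2 and limma-voom also called 0. The middle 95% of log2 changes ran from -1.07 to 1.37 around a median of 0.02, and the median SE was 0.47. For 36.7% of the genes the 95% interval lay within a 2-fold change in either direction. For the others a change of 2-fold was not detectable or not bounded at this depth and number of birds. In the count table that share was 8.11%. Below, "higher" and "lower" for the CPM table describe the birds, and none of these genes passed the adjusted test (limma adjusted p = 0.999 for each that was tested).

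Genes of thyroid hormone action were read bird by bird whatever their level. DIO2 had 14.9, 23.9, 22.4, 9.53, 11.6 and 5.31 CPM in 16La birds 1 to 6, on 75 reads. In 8L it had 6.98, 2.26, 5.31, 6.31, 1.74 and 4.66 CPM, on 26 reads. Only bird 6 of 16La lay within the range of 8L. The log2 change was -1.42 (SE 0.65), and the exact two-sided permutation p was 0.00649 before adjustment. Over all 17685 genes tested that way, 310 were lower (1.75%) and 340 higher (1.92%) at an exact p under 0.05, together 3.68%, and the adjusted p was 1 for every gene. In the count table DIO2 pointed the other way. It had 27.8, 23.7, 0, 12.8, 0 and 0 CPM in 16La on 4 counts, and 41.2, 62.0, 84.5, 31.4, 31.2 and 76.1 CPM in 8L on 14 counts, with no overlap (exact p = 0.00216). That separation rests on very few counts. In bird 1 of 16La and birds 4 and 5 of 8L, which lay nearest each other, 3 counts stand for 83.3, 94.1 and 93.7 CPM. With TMM-scaled CPM the exact permutation p was 0.00433. Of the 13326 genes detected there, 4 lay wholly higher in 8L (0.03%) and 16 wholly lower (0.12%). At an exact p under 0.05, 193 were lower (1.45%) and 48 higher (0.36%), and the adjusted p was again 1. Across the cycle the CPM table gave DIO2 means of 14.6 CPM at 16La, of 2.85 to 6.20 over the 4 groups from 14La to 8L, and of 13.2 at 16Lv, where n was 5.

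DIO3, the inactivating enzyme, had 1 read in 16La and 8 in 8L, in 4 of the 6 8L birds (exact p = 0.0606). CRYM, a cytosolic binding protein of thyroid hormone, had a median of 8.41 CPM in 16La and 14.4 in 8L (log2 change 0.68, SE 0.41). TSHR, the thyrotropin receptor, had 13 and 7 reads, and SLCO1C1, a thyroxine transporter, 16 and 27, with exact p of 0.621 and 0.392. EYA3, a long-day co-activator of TSHB in mammals, had a log2 change of -0.21 (SE 0.95). Of 15 genes of this pathway 6 were tested, 2 of them positive, with a median log2 change of -0.20.

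**Figure D3:**
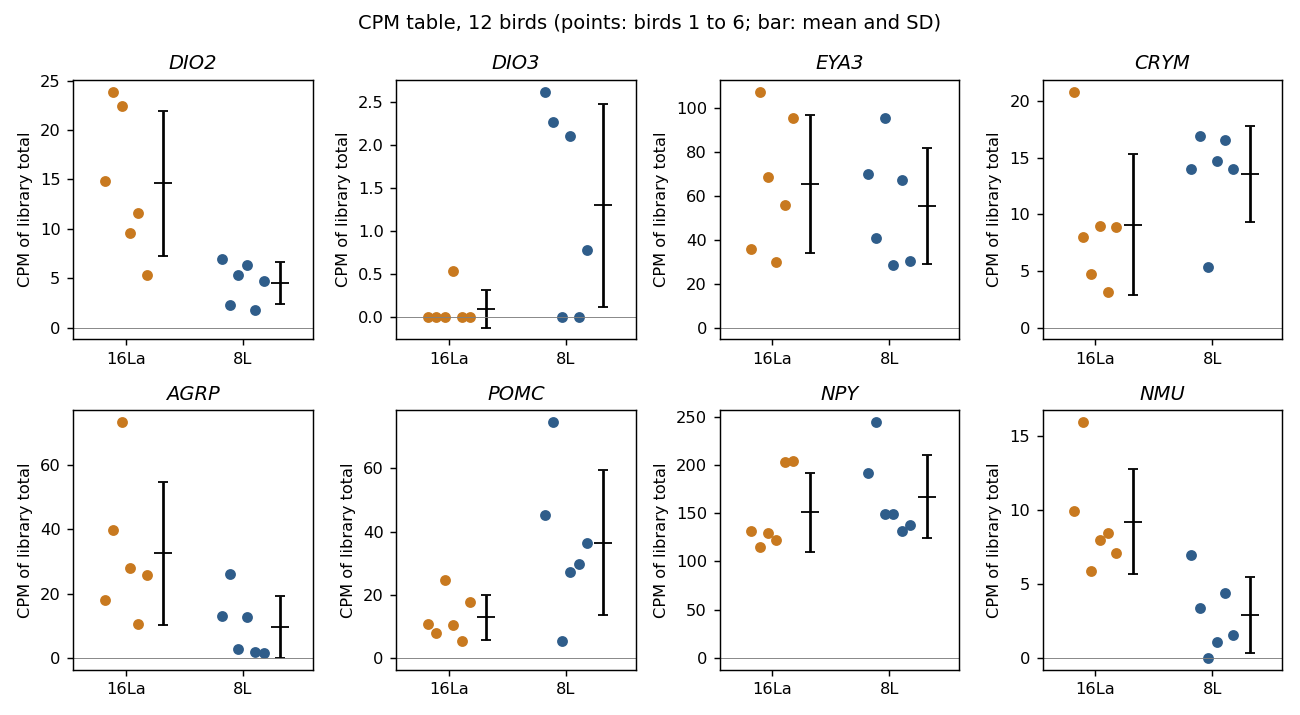
Levels in the CPM table for the 12 birds, in CPM on the y axis, for thyroid hormone genes (upper row) and hypothalamic peptides (lower row). Points are birds 1 to 6 of each group and bars are mean and SD. DIO2, AGRP and NMU sit lower in most 8L birds, POMC higher in 5 of 6, and NPY overlaps throughout.

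Peptides of arcuate neurons that control feeding had changes in different directions, and none passed with all birds. POMC, whose products curb feeding, had 10.9, 7.96, 24.8, 10.6, 5.25 and 17.7 CPM in 16La birds 1 to 6. In 8L it had 45.4, 74.6, 5.31, 27.3, 29.6 and 36.5 CPM. Bird 3 was the lowest of 8L, and the other 5 lay above every 16La bird. The log2 change was 1.28 (SE 0.38; limma adjusted p = 0.999). Each of the 12 birds was left out in turn, and POMC passed only without bird 3 of 8L (log2 change 1.73; limma adjusted p = 0.0403). Bird 3 is the 8L bird that ran against the difference, so that pass follows from its value and adds no separate support. That bird had the fewest reads of its group, 376519, and bird 2 of 16La, at the same column place and also the shallowest of its group, had 7.96 CPM. Whether depth bears on the POMC level of bird 3 was not tested. The exact two-sided permutation p was 0.0584 with all birds. It was 0.00433 without bird 3 of 8L, which follows from the same choice. POMC averaged 12.9 CPM at 16La, 28.3 at 12La and 42.1 at 10La, against 36.5 at 8L.

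AGRP, whose product raises feeding, had 17.9, 39.8, 73.2, 28, 10.5 and 25.7 CPM in 16La and 13.1, 26, 2.66, 12.6, 1.74 and 1.55 in 8L. The ranges overlapped between 10.5 and 26 CPM, and birds 3, 5 and 6 of 8L lay below every 16La bird. The log2 change was -1.97 (SE 0.77; exact two-sided permutation p = 0.026), with an exact p of 0.0563 or 0.0584 once bird 2 or bird 3 of 16La was left out. NPY, made by the same neurons as AGRP, had a median of 131 CPM in 16La and 149 in 8L, with a log2 change of 0.17 and a 95% interval from -0.28 to 0.62. NMU, neuromedin U, had 5.90 to 15.9 CPM in 16La (50 reads) and 0 to 6.98 in 8L (19 reads), with 1 bird of 8L inside the range of 16La (log2 change -1.62, SE 0.59; exact p = 0.00433).

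None of the peptides tied to reproduction, prolactin or other hypothalamic axes passed. NPVF, the precursor of gonadotropin-inhibitory hormone, had a log2 change of 0.62 with an interval from -0.18 to 1.41. VIP, which drives prolactin release in birds, had one of 0.04 with an interval from -0.52 to 0.60. For GAL it was 0.16 (SE 0.24), for PENK -0.18 (SE 0.26), for PDYN -0.59 (SE 0.32), for CARTPT -0.73 (SE 0.72) and for TRH -1.25 (SE 0.91). GNRH1 had no read in 16La and 2 in 8L, too few to compare. Of 23 hypothalamic peptide genes 19 were tested, 7 positive and 12 negative, with a median of -0.13. CGA, measured here on 649 and 742 reads, had a log2 change of 0.34 with an interval from -0.60 to 1.28, and FSHB had no read.

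GPR62, HAPLN2 and TSPAN2 were among the genes of the CPM table with the smallest p on the lower side, and were named for that p. GPR62, an orphan receptor of these myelin-making cells in mice, had 16.5 to 58.8 CPM in 16La (median 40.2) and 5.31 to 27.9 in 8L (median 15.1), with a log2 change of -1.34 (SE 0.41). HAPLN2, a link protein of the matrix at nodes of Ranvier in mice, had 33.9 to 127 CPM in 16La (median 73.1) and 20.4 to 47.4 in 8L (median 32.4), with a log2 change of -1.11 (SE 0.37). TSPAN2, a tetraspanin of rodent oligodendrocytes, had a log2 change of -0.84 (SE 0.27), and bird 5 of 16La, at 603 CPM, was far above the other 16La birds (143 to 228). In all 3 genes the groups overlapped. Across the cycle the mean of TSPAN2 was 262 CPM at 16La and 137 at 8L. It was lower still in every group after 8L, down to 90.2 CPM at 16Lv, so a low level of TSPAN2 was not particular to 8L. GPR62 and HAPLN2 had their lowest means at 8L, 15.8 and 34.1 CPM, with GPR62 close to that at 12Lv (16.5 CPM). Differences between these means were not tested. The list of oligodendrocyte markers had 12 members measured and 10 tested, 9 of them negative, with a median of -0.19 against 0.02 over all genes tested. Its summed level was 6304 to 11584 CPM in 16La and 4720 to 8691 in 8L, overlapping over most of that range. MBP, myelin basic protein, had a log2 change of -0.31 with an interval from -0.66 to 0.05. Over all 12 members, 8 had a lower mean in 8L.

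Further genes on that side were PCBP4, an RNA-binding protein with 72 reads in 16La and 6 in 8L (log2 change -2.88, SE 0.87), BCAN, a brain proteoglycan (-0.94, SE 0.31), LZIC (-1.50), the kinase STK24 (-1.67), PRUNE2 (-1.54) and TXNDC5, a protein disulfide isomerase (-1.97). LZIC, STK24 and PRUNE2 had no read in bird 3 of 8L.

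**Figure D4:**
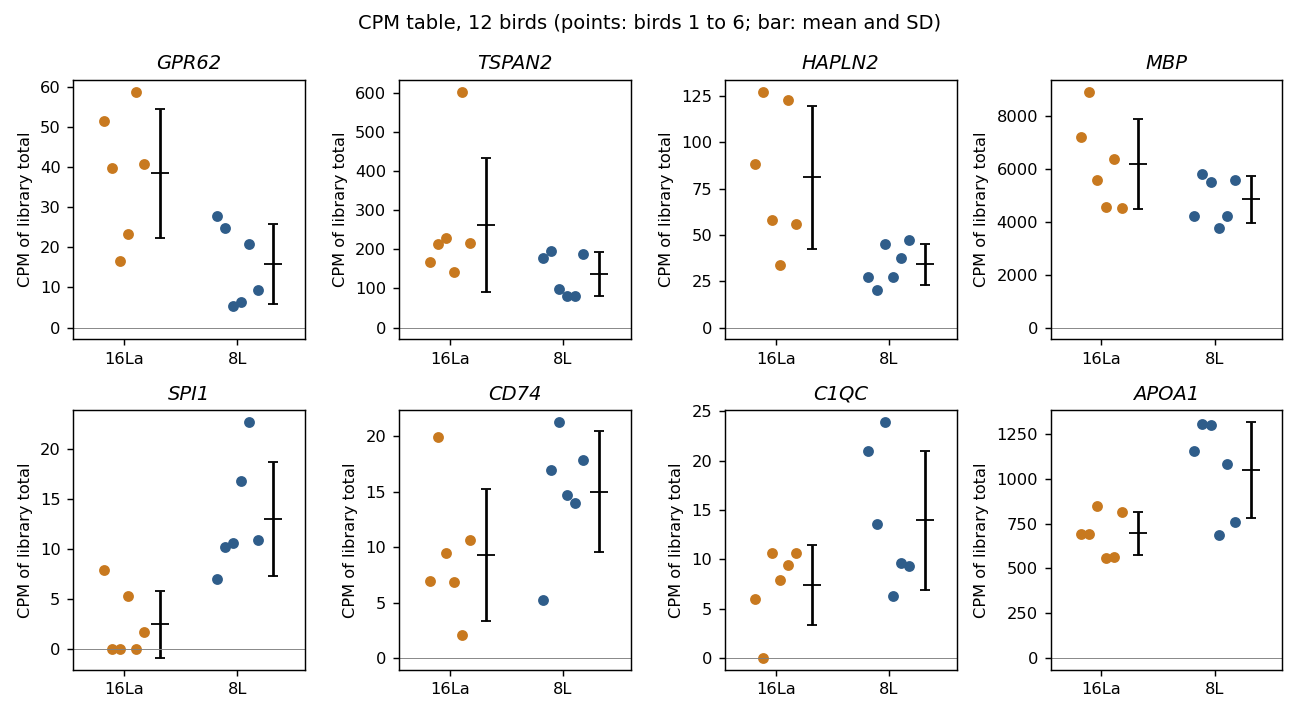
Levels in the CPM table for the 12 birds, in CPM on the y axis, for GPR62, TSPAN2, HAPLN2, MBP, SPI1, CD74, C1QC and APOA1. Points are birds 1 to 6 of each group and bars are mean and SD. SPI1 is at 0 in 3 of the 16La birds and above 6 CPM in every 8L bird.

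On the higher side SPI1, the transcription factor of myeloid cells, had 7.93, 0, 0, 5.29, 0 and 1.77 CPM in 16La on 20 reads. In 8L it had 6.98, 10.2, 10.6, 16.8, 22.6 and 10.9 CPM on 77 reads. Bird 1 of 16La alone reached into the range of 8L. The log2 change was 2.51 (SE 0.74; exact two-sided permutation p = 0.00433). Of 13 markers of microglia and macrophages measured 6 were tested, and all 6 were positive, with a median log2 change of 0.90. Over the 13 members, 11 had a higher mean in 8L, against 8994 of 19916 genes measured. Their summed level was 19.9 to 54.9 CPM in 16La and 54.1 to 91.5 CPM in 8L, so that the groups met at the edge. CD74 (0.77, SE 0.49) and C1QC (1.02, SE 0.78), a class II invariant chain and a complement component, did not pass. Across the cycle SPI1 had no single direction. Its mean was 2.5 CPM at 16La, 11.2 at 14La, 11.4 at 12La, 13.0 at 8L, 2.56 at 10Lv and 15.6 at 14Lv. A high level was therefore not particular to 8L. The 14La mean was pulled up by a bird at 41.8 CPM (median 5.32).

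APOA1, the main protein of high-density lipoprotein, had 558 to 850 CPM in 16La (median 694) and 685 to 1306 in 8L (median 1122), on 4105 and 5847 reads. It had 4 of 6 8L birds above every 16La bird, with a log2 change of 0.59 (SE 0.17). Across the cycle 16La had the lowest mean of APOA1, at 696 CPM. The other groups averaged 918 to 1123 CPM, with 1049 at 8L and 1093 at 16Lv, so a high level was not particular to 8L. In the sterol and lipid transport list, which holds APOA1, 8 of 10 tested members were negative, among them FDFT1, a squalene synthase (-0.36, SE 0.29), with a median of -0.23 and none called. Its summed level was 902 to 1269 CPM in 16La (median 1139) and 974 to 1705 CPM in 8L (median 1483). NPR1, a receptor for natriuretic peptides, had a log2 change of 0.79 (SE 0.24), with 58.8 to 146 CPM in 16La and 130 to 195 in 8L. NEURL1, a ubiquitin ligase (1.64), IMMP2L, a mitochondrial peptidase (1.99), HSDL2 (1.37), INIP (1.47) and LSM14A, a protein of processing bodies (2.13), completed the higher side.

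**Figure D5:**
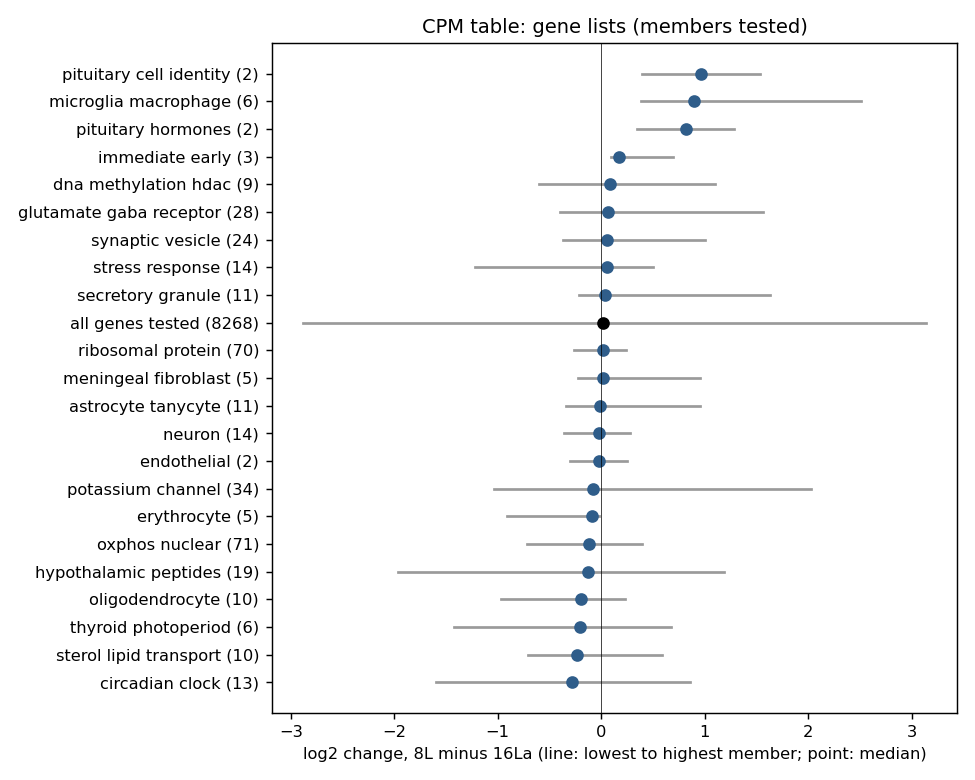
Gene lists in the CPM table, with the number of members tested in brackets. The x axis is the log2 change (8L minus 16La), points are medians of the members tested and lines run from the lowest to the highest member, with all 8268 genes in black. Most list medians lie within 0.3 of 0, microglia markers are at 0.90 on 6 members, and the 2 pituitary lists rest on 2 members each.

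Larger lists in the CPM table stayed close to 0, and no member of any of the 22 lists passed. Nuclear genes of oxidative phosphorylation had 55 of 71 tested members negative, with a median of -0.12. NDUFA5 had the smallest p of them (-0.37, SE 0.16) and NDUFS3 the lowest value (-0.72). Cytosolic ribosomal proteins had 38 of 70 positive, with a median of 0.02. Receptors for glutamate and GABA had 20 of 28 positive and a median of 0.07, among them GRIK1 (0.70, SE 0.24) and GRIA3 (1.02, SE 0.45). Clock genes had 9 of 13 negative and a median of -0.29, with CLOCK itself at -0.86 (SE 0.44). Potassium channels had a median of -0.08, synaptic vesicle genes 0.06, neuronal markers -0.02 and markers of astrocytes and tanycytes -0.01. Markers of red blood cells were negative in 5 of 5 with a median of -0.09.

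Few genes of the CPM table separated the birds completely. There were 7 wholly lower in 8L (0.0847%) and 13 wholly higher (0.157%) of 8268, and 9 (0.0509%) and 21 (0.119%) of the 17685 genes detected. With no difference between the groups, a gene separates completely in either direction with a probability of 0.00216. The shares of both directions together lie near that, so the number of these genes is no result in itself. On the lower side were ATRX, a chromatin remodeller (142 to 215 CPM in 16La, 116 to 137 in 8L), POR, the electron donor of cytochromes P450, the mitochondrial protease HTRA2, the complex I subunit NDUFS3, AP4B1, BLCAP and B3GAT2. On the higher side XBP1, a transcription factor of the unfolded protein response, went from 11.6 to 24.8 CPM in 16La to 25.7 to 33.9 in 8L. LGI1, a secreted protein of synapses, had 47.7 to 105 CPM in 16La and 116 to 181 in 8L. OGT, which adds N-acetylglucosamine to proteins, had 43.4 to 60.5 and 61.0 to 90.3 CPM, with a gap between the groups smaller than either range. NFXL1, ARMC8, DDX1, SARAF, UHRF1BP1L, SLC45A4, BRF1, FYB1 and RNF180 also lay wholly higher. None of these genes passed (limma adjusted p = 0.999 each).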

How the data were processed

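Per the labels, polyadenylated RNA of 54 male quail was made into cDNA for Nanopore sequencing. Per the submitters' processing notes the tools were Salmon 0.14.2, minimap2 2.17 and edgeR 3.24.3; their roles and the build are not stated in the sources used here, so no coordinates are printed. The authors deposited CPM for 19916 names (14 date-like names left out here; 58.3% of names are in the RefSeq table of Coturnix japonica 2.1). The authors also deposited estimated counts, not normalised, for 40282 transcripts of 16448 genes, 99.72% of them whole within 1e-09. Reads behind the deposited CPM were recovered from the most common positive value, and 99.83% to 99.95% of values in the 12 birds came out whole within 0.1 read.

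Counts were rounded and summed per gene, and tested with edgeR 4.0.16 (quasi-likelihood F, TMM, filterByExpr with minimum count 10). CPM was tested with limma 3.58.1 on log2(TMM-scaled CPM + 1), for genes at 10 CPM or more in at least 6 libraries; log2 changes of low genes are understated on that scale. Each fit held 9 group means over all libraries, 54 for counts and 53 for CPM. Replicates 3 and 6 of 16Lv, which lie outside the comparison, differed in the CPM table by less than the sampling noise (chi-square per degree of freedom 0.953) and were counted as 1 sample. The contrast was 8L minus 16La, and calls needed an adjusted p under 0.05 (Benjamini-Hochberg over all genes tested). Levels are CPM of the library total. Exact two-sided permutation tests used log2(CPM + 1). The edgeR gene fit (on genes already filtered), the limma fit and the permutation test were tried on simulated data. The DESeq2, limma-voom and transcript fits were not.

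The members, gene lists and tests were chosen with earlier results of these data known. Named were called features and, up to 10 per direction, the next with a symbol by smallest p, 30 priority genes and up to 3 members of each list; a few genes that the rule names in the CPM table are not reported here. The limits for FSHB and NTS cover counting error only, since reads may be copies of 1 molecule; the intervals of log2 changes come from the fits and carry the spread between birds. Alternatives were DESeq2 1.42.0, limma-voom, other filters and pseudocounts, other scalings, the 2 groups alone, the column order as a term (without the 16Lv mean in the CPM table), and leaving out shallow or single libraries.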

Additional observations from a re-analysis of the deposited data

Results flagged for a closer look

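A bird was set apart when its gap to the nearest bird of its group, divided by the range of the group, passed Dixon's 95% value for 6 samples. Of 106 groups of birds examined over the named and priority genes 11 had such a bird. Chance gives about 1 in 20 for normally distributed values only. The values used were CPM, some of them near the floor, so the 11 cannot be read as an excess. In the count table CGA in bird 4 of 8L was at 2070 CPM, with the next 8L bird at 1457. That bird is the highest of 8L and still lies below every 16La bird.

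In the CPM table bird 3 of 8L was high for PCBP4 (10.6 CPM, next 0.873) and low for CRYM (5.31 CPM, next 14.0). Bird 1 of 16La was high for CRYM, at 20.8 CPM against 9 for the next. TSPAN2 was at 603 CPM in bird 5 of 16La (next 228) and PRUNE2 at 155 CPM in bird 2 of 16La (next 63.5). PDYN was low in bird 4 of 16La, at 92.1 CPM with the next at 129.

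CARTPT reached 31.7 CPM in bird 2 of 8L (next 10.5) and TRH 19.98 CPM in bird 4 of 8L (next 7.97). TTR was at 12.4 CPM in bird 6 of 16La (next 1.05), and CRH at 3.54 CPM in the same bird (next 0.992).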

How the results depend on the processing

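No paired analysis was possible because no label ties a bird of 8L to a bird of 16La and replicate numbers only follow accession order; the place of a column in the headers, which no label explains, was used as a term instead and left the counts of calls at 4, 5 and 0. For the count table, 4 genes were called; DESeq2 called 7, of which 1 higher, and no filter on low counts gave 24, of which 8 higher, with 3 of the 4 kept. Leaving out single birds gave 4 to 7 calls, with 7 without bird 5 of 8L, and kept the 4. NTS, picked after its values were seen, entered 10 of these 12 fits through counts of groups other than 8L. It was called in each of the 10 and with no filter, which adds no separate support. The 5 called transcripts became 3 when only the 2 groups were fitted, and 5 to 7 when single birds were left out. For the CPM table, 0 calls became 1 with no filter on low values (LOC100857475, higher) and 0 to 1 when single birds were left out, with 1, POMC, without bird 3 of 8L.

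Over single genes, 12 values in 4 results lost a threshold passed above, 23 in 13 results gained one, 4008 did neither and 0 changed direction with a call. NELL2 as a transcript lost its call with no filter (edgeR adjusted p = 0.425). KCNMA1 gained one with DESeq2 (adjusted p = 0.0363) and ZC3H7B with DESeq2 (0.0171) and limma-voom (0.0095). The cause was not tested. Low counts limit FSHB, NTS, DIO2, DIO3, TSHR and GNRH1 among others.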
